A study of Mus musculus with 5 samples.

Results

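Transcripts of the mouse proteasome and immunoproteasome subunits were compared between brain dendritic cells (DCs) and bone marrow monocytes. The members were 41 genes named by symbol: the 7 genes Psma1 to Psma7 and the genes Psmb1 to Psmb10 of the core particle, Psmc1 to Psmc6 and Psmd1 to Psmd14 of the regulatory particle and its assembly, and the activator genes Psme1 to Psme4. A member was measured where at least 1 probe set of the array was annotated to its symbol alone, and its value was the mean of those probe sets. This gave 40 of the 41 members, out of 18193 genes measured in all, and no filter on low values was applied. Psme2 lay only on a probe set that carried another symbol as well. The brain DC group held 2 Affymetrix arrays of Lin-CD45hiCD11c+ cells (lineage-negative, high CD45, CD11c on the surface) from brains of female C57BL/6 mice aged 6 to 8 weeks. Those mice had been given 1000000 B16-Flt3L tumour cells under the skin 12 days before organs were taken. B16 cells are mouse melanoma cells, and the Flt3 ligand they secrete expands dendritic cells. The bone marrow monocytes, on 3 arrays, were sorted for CD115, high CD11b and low side scatter, also from female C57BL/6 mice aged 6 to 8 weeks, for which the labels name no treatment. Cell type, tissue and tumour therefore differ together between the groups and cannot be told apart. Whether the samples came from separate animals is not labelled, and p-values reflect only the spread among these samples, part or all of which may be technical.

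The proteasome is the barrel-shaped protease that degrades ubiquitin-tagged proteins in the cytosol and nucleus. Its core particle has outer rings of alpha subunits, which form the gate, and inner rings of beta subunits, of which Psmb5, Psmb6 and Psmb7 carry the active sites of most cells. In cells of the immune system, and in other cells exposed to interferon gamma, Psmb8, Psmb9 and Psmb10 can take the places of Psmb5, Psmb6 and Psmb7 during assembly, and the resulting immunoproteasome makes more of the peptide ends that fit MHC class I molecules. The regulatory particle unfolds tagged proteins with a ring of ATPases and recognises and removes ubiquitin with non-ATPase subunits, while the activators open the core without ATP. The series was designed in part to compare genes of antigen processing and presentation among these cell types.

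Each value is a log2 signal set against the baseline of its own probe set. Arrays can be compared within a gene, while the level of one gene against another is not known. Every difference is brain DC minus monocyte on the log2 scale, given with the standard error (SE) of a limma model fitted to all 18193 genes. A gene was called where its limma p, after Benjamini-Hochberg adjustment over all these genes, was under 0.05. The number of arrays limits the precision. The labels were checked against marker genes. All 8 conventional dendritic cell markers were called higher in brain DCs, with Xcr1 at 5.64, H2-Ab1 at 5.45 and the gate gene Itgax (CD11c) at 5.02. All 6 measured monocyte markers were called lower, with Fn1 at -5.94, F13a1 at -5.36 and Cx3cr1 at -2.56. They include the gate genes Csf1r (CD115) at -1.40 and Itgam (CD11b) at -2.28. Gate genes of either group follow from the sort and are no separate check of the labels. Markers of other cells moved with the same contrast. All 7 measured microglia markers were called higher in brain DCs, by 1.12 to 3.64 (Gpr34 3.64, Fcrls 3.45, P2ry12 2.49), and their mean was 1.73 and 1.52 in the brain DC arrays, against -0.73, -0.87 and -0.64 in the monocyte arrays. Of the other lists, 3 of 8 choroid plexus, neural and endothelial markers were called higher (Ttr 7.22, Cldn5 2.56, Pecam1 0.59). So were 3 of 6 natural killer and T cell markers (Klrd1 6.29, Gzma 2.75, Gzmb 1.56). Among 5 B cell and plasmacytoid markers, 3 were called higher (Bst2 3.10, Siglech 1.78, Ms4a1 1.00), and Siglech is also counted among the microglia markers. Cd79a (-0.14) and Tcf4 (-0.13), of the same list, were not called. Of 7 proliferation genes 5 were called lower (Mki67 -2.04, Aurkb -1.96, Bub1 -1.79). Of 8 granule genes 4 were called lower (Mpo -4.64, Prtn3 -4.53, Ctsg -3.57). The granule list was divided, since Camp (1.33), Ngp (1.25), Ltf (0.92) and S100a8 (-0.12) were not called. Monocyte array 1 stood apart on the granule list, with a mean of 1.32 against 3.19 and 3.14 in monocyte arrays 2 and 3. Because the values are centred, no marker can be said to be at 0.

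Control probe sets along 2 housekeeping transcripts differed between the groups as well. The 5′ minus the 3′ value of Actb was 0.16 and 0.31 in the brain DC arrays, against -3.99, -3.98 and -1.60 in the monocyte arrays. For Gapdh it was 0.34 and 0.22 in the brain DC arrays, against -2.78, -2.86 and -2.28 in the monocyte arrays. The 5′ ends thus read lower, relative to the 3′ ends, in all 3 monocyte arrays. The spike-in controls, polyadenylated RNAs put in before labelling, read higher in both brain DC arrays on all 24 of their probe sets, by 1.31 to 3.52. The part of these differences, and of the other cell types, in the proteasome values below was not tested, and probe positions along the transcripts were not used here. In sorted bulk samples, fewer cells of a type and less RNA per cell cannot be told apart.

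Of the 40 measured proteasome genes, 17 were called higher in brain DCs, 1 was called lower and 22 were not called. Over all genes tested, 16.9% were called higher and 16.9% lower, the shares to set beside each count by role or list below. The median difference of the members was 0.38, beside 0.09 over all genes, and 30 members lay above 0 and 10 below. Both brain DC arrays lay above all 3 monocyte arrays for 24 members and below them for 3, while 13 overlapped, and over all genes 35.1% lay above and 25% below. Only 6 members were called higher by at least 2-fold, a set that 6.03% of all genes met: Psmb9, Psmb7, Psme1, Psmb8, Psma4 and Psmb1. Psmb9, Psmb7, Psme1 and Psmb8 lay between 2.16 and 2.59, apart from Psma4 and Psmb1 at 1.29 and 1.28, with all other members below 1. Without those 4, the remaining 36 measured members had a median of 0.34, with 13 called higher and 1 lower. Leaving out 1 array at a time gave 12 to 15 members called higher.

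**Figure D1:**
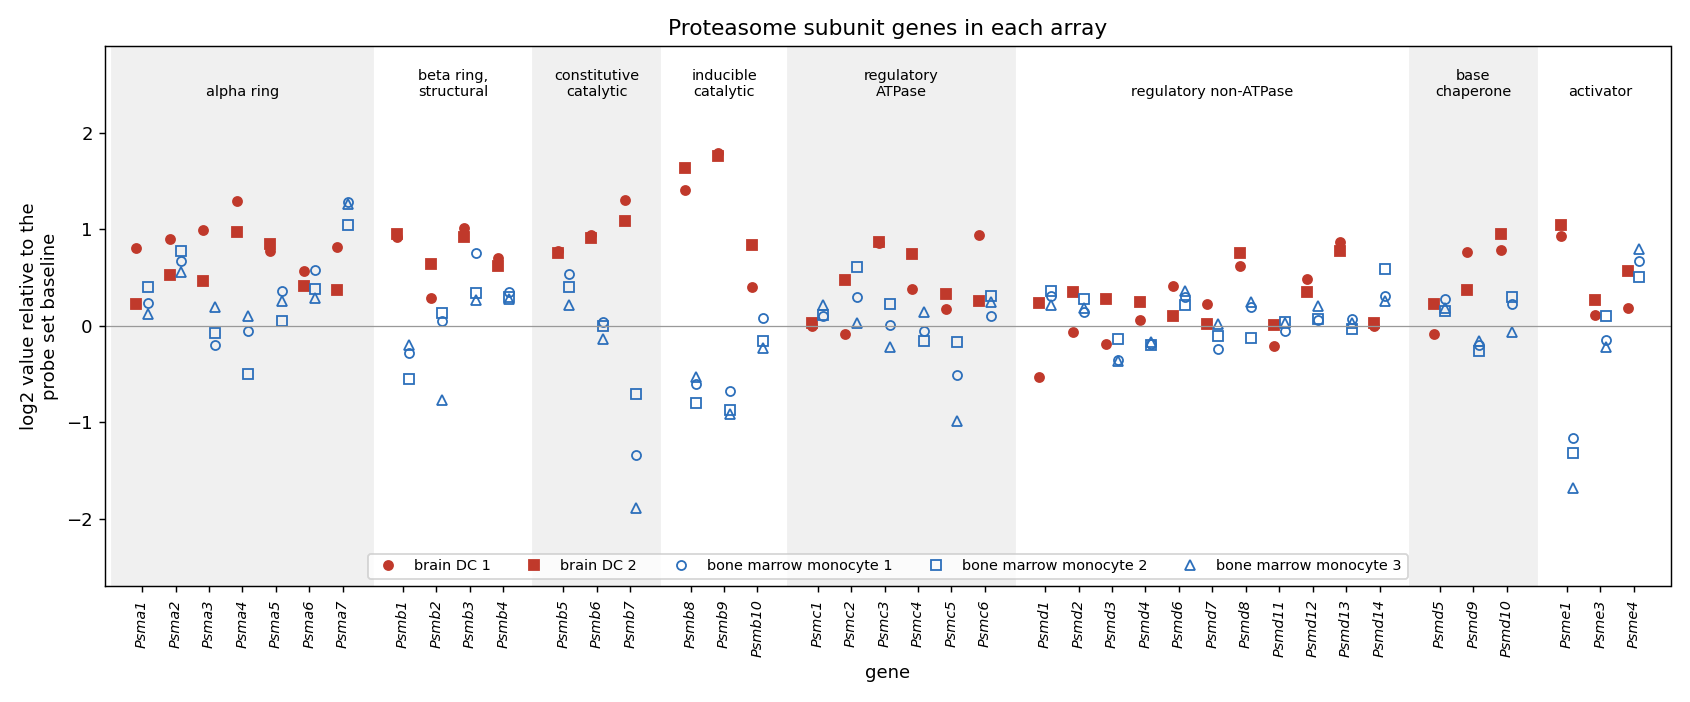
Log2 value of each measured proteasome subunit gene, relative to its probe set baseline, in the 2 brain DC arrays (filled) and the 3 bone marrow monocyte arrays (open), grouped by role. The groups lie farthest apart for Psmb9, Psmb7, Psme1 and Psmb8, and Psma7 is the called gene with the brain DC arrays below the monocyte arrays.

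**Figure D2:**
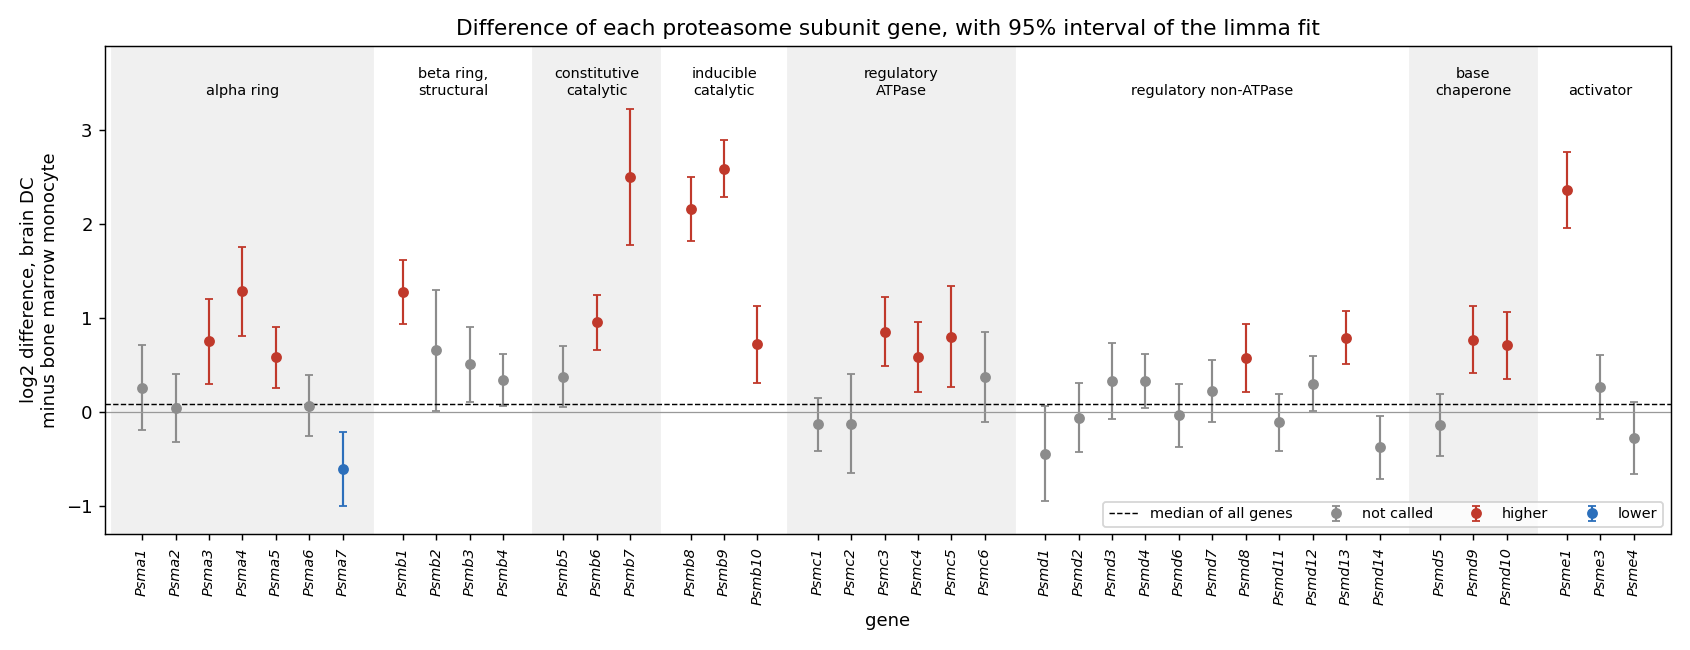
Log2 difference (brain DC minus bone marrow monocyte) of each measured gene with the 95% interval of the limma fit, red where called higher, blue where called lower and grey where not called. The dashed line marks the median of all genes at 0.09, and 17 members are red, 1 is blue and 22 are grey.

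The 3 inducible catalytic subunits, Psmb8, Psmb9 and Psmb10, were all called higher in brain DCs, with a median difference of 2.16. Psmb9, which replaces the caspase-like subunit, read 1.79 and 1.76 in the brain DC arrays, against -0.68, -0.87 and -0.91 in the monocyte arrays. It was 6.04-fold higher (2.59 ± 0.13 SE, limma adjusted p = 1.5e-05), the largest difference among the members. Its arrays agreed closely within each group, and the gap between the groups was many times their spread. Psmb8, which replaces the chymotrypsin-like subunit, read 1.40 and 1.64 in the brain DC arrays, against -0.60, -0.80 and -0.53 in the monocyte arrays. It was 4.48-fold higher (2.16 ± 0.14 SE, limma adjusted p = 5.55e-05), and both of its probe sets were called, at 2.08 and 2.25. Psmb10, which replaces the trypsin-like subunit, was closer between the groups. It read 0.40 and 0.84 in the brain DC arrays, against 0.08, -0.16 and -0.23 in the monocyte arrays, and was 1.65-fold higher (0.72 ± 0.18 SE, limma adjusted p = 0.0166). The groups did not overlap for any of the 3 genes. The call of Psmb10 was lost without brain DC array 2 (0.50, limma adjusted p = 0.0845) and without monocyte array 3 (0.66, limma adjusted p = 0.0527).

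The genes of the 2 subunits with the larger differences lie side by side with the peptide transporter genes in the MHC region of chromosome 17, in the order H2-DMb1, Psmb9, Tap1, Psmb8 and Tap2 among coding genes. Promoter windows from 250 bases before to 50 bases after the transcript start are shown for the genes whose differences stood out and for the constitutive partners of Psmb8 and Psmb9, from RefSeq on build GRCm38.p6, each read 5′ to 3′ on the strand of its gene. The Psmb9 and Tap1 windows lie on opposite strands and share 275 of their 300 bases. Capitals mark matches to 4 short motifs searched on both strands: GAAA repeated after any 2 bases, the core of the interferon-stimulated response element, TTCNNNGAA, the gamma-activated site bound by STAT factors, TGACNNNGC, the core of the antioxidant response element, and CCAAT, the box bound by NF-Y. The Psmb8 window is chr17:34197945-34198244 on the plus strand, with a gamma-activated site match, TTCCCAGAA, that begins at -97.
Psmb8: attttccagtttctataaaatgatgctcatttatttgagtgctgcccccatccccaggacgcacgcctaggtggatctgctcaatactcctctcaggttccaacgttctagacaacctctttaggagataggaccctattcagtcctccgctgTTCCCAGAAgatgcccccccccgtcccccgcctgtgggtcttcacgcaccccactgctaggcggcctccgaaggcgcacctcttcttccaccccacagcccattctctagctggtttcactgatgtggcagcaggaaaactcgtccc
The Psmb9 window is chr17:34187281-34187580 on the minus strand, with a CCAAT box match on the opposite strand that begins at -8.
Psmb9: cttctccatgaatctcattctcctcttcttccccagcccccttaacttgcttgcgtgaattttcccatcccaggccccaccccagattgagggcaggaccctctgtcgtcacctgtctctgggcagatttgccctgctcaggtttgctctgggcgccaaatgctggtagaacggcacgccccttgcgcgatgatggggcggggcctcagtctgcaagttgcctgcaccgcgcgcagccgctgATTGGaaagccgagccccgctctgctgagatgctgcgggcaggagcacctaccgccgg
The Psme1 window is chr14:55578244-55578543 on the plus strand, with a match to the interferon-stimulated core on the opposite strand, TTTCGCTTTC, that begins at position 10 after the start.
Psme1: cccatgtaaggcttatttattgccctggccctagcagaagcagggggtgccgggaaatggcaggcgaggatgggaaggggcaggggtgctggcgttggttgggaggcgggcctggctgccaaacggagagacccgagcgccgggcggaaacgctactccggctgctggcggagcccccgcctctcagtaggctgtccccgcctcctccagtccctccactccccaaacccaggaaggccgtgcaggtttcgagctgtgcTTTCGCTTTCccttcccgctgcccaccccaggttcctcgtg
The Psmb5 window is chr14:54617946-54618245 on the minus strand, with an antioxidant core match, TGACGTCGC, that begins at -47.
Psmb5: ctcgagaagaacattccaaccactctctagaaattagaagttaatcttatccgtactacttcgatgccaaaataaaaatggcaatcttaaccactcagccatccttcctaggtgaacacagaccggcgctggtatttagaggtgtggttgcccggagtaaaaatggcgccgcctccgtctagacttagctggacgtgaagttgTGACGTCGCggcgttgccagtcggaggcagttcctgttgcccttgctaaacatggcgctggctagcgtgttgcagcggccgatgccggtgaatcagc
The Psmb6 window is chr11:70525107-70525406 on the plus strand, with an antioxidant core match, TGACGGAGC, that begins at -9.
Psmb6: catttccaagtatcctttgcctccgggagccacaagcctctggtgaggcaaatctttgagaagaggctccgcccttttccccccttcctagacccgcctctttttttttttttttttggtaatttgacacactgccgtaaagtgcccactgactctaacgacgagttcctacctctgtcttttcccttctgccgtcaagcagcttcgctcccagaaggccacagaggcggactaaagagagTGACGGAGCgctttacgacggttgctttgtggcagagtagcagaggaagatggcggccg
Psmb7 and Psmb1 had no window in the table used. The windows of Psmb10 and Psma4, not shown, held no match to the 4 motifs.

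Of the 41 members 35 had a window, 38 windows in all, and they were set beside all 32851 windows of the table. The interferon-stimulated core occurred in 10.5% of the members' windows and in 3.44% of all windows, in the genes Psmb3, Psmd4, Psmd9 and Psme1. Of these Psmd9 and Psme1 were called higher, while Psmb3 and Psmd4 were not called. The gamma-activated site occurred in 5.26% of the members' windows (Psmb8 and Psmd2) and in 8.3% of all windows. The antioxidant core occurred in 15.8% of the members' windows and in 12.4% of all windows, in 2 of the 14 called-higher genes with a window and in 4 of the 19 not called. The CCAAT box occurred in 34.2% of the members' windows and in 37.4% of all windows, in 3 of the 14 called-higher genes and in 9 of the 19 not called. These are matches of letters and were not tested for binding.

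The 3 constitutive catalytic subunits went the same way but by very different amounts, with Psmb7 far ahead of Psmb6 and Psmb5. Psmb7, which carries the trypsin-like site, read 1.31 and 1.09 in the brain DC arrays, against -1.33, -0.70 and -1.89 in the monocyte arrays. It was 5.67-fold higher (2.50 ± 0.31 SE, limma adjusted p = 8.63e-04), next to Psmb9 in size among all members. Its monocyte arrays were the most spread of any member (SD 0.60), yet all 3 lay well below both brain DC arrays, and leaving out 1 array gave 2.21 to 2.81. Psmb6, which carries the caspase-like site, read 0.95 and 0.91 in the brain DC arrays, against 0.04, 0.00 and -0.14 in the monocyte arrays, and was 1.94-fold higher (0.96 ± 0.13 SE, limma adjusted p = 0.00109). Psmb5, which carries the chymotrypsin-like site, read 0.77 and 0.76 in the brain DC arrays, against 0.53, 0.40 and 0.22 in the monocyte arrays. The Psmb5 groups did not overlap, but the gene was not called (0.38, 95% interval 0.06 to 0.70, limma adjusted p = 0.0718). With quantile normalisation over the 5 arrays it was called (0.53, limma adjusted p = 0.0218). Each of the 3 was read by 1 probe set.

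Each inducible subunit was set against the constitutive subunit whose place it takes, as the difference of the 2 log2 values within an array. The zero of such a difference is arbitrary, since each probe set has its own baseline, but a change between the groups is not, and it does not depend on a shift of a whole array. Psmb8 minus Psmb5 was 0.63 and 0.88 in the brain DC arrays, against -1.14, -1.20 and -0.75 in the monocyte arrays, a shift of 1.79 toward the inducible subunit in brain DCs. Psmb9 minus Psmb6 was 0.84 and 0.85 in the brain DC arrays, against -0.72, -0.87 and -0.77 in the monocyte arrays, a shift of 1.64 in the same direction. Psmb10 minus Psmb7 was -0.91 and -0.24 in the brain DC arrays, against 1.42, 0.54 and 1.66 in the monocyte arrays, a shift of -1.78, toward the constitutive subunit in brain DCs. The inducible gene thus gained on its partner for 2 of the 3 active sites and lost to it for the trypsin-like site, although Psmb10 itself was called higher. The groups did not overlap for any of the 3 pairs. The exact two-sided permutation test gave p = 0.1 for each pair, the smallest that 2 against 3 arrays allow, and 0.1 after adjustment over the 3 pairs, so the design cannot pass 0.05. Leaving out 1 array gave 1.66 to 1.92 for Psmb8 minus Psmb5, 1.59 to 1.67 for Psmb9 minus Psmb6 and -2.11 to -1.45 for Psmb10 minus Psmb7.

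**Figure D3:**
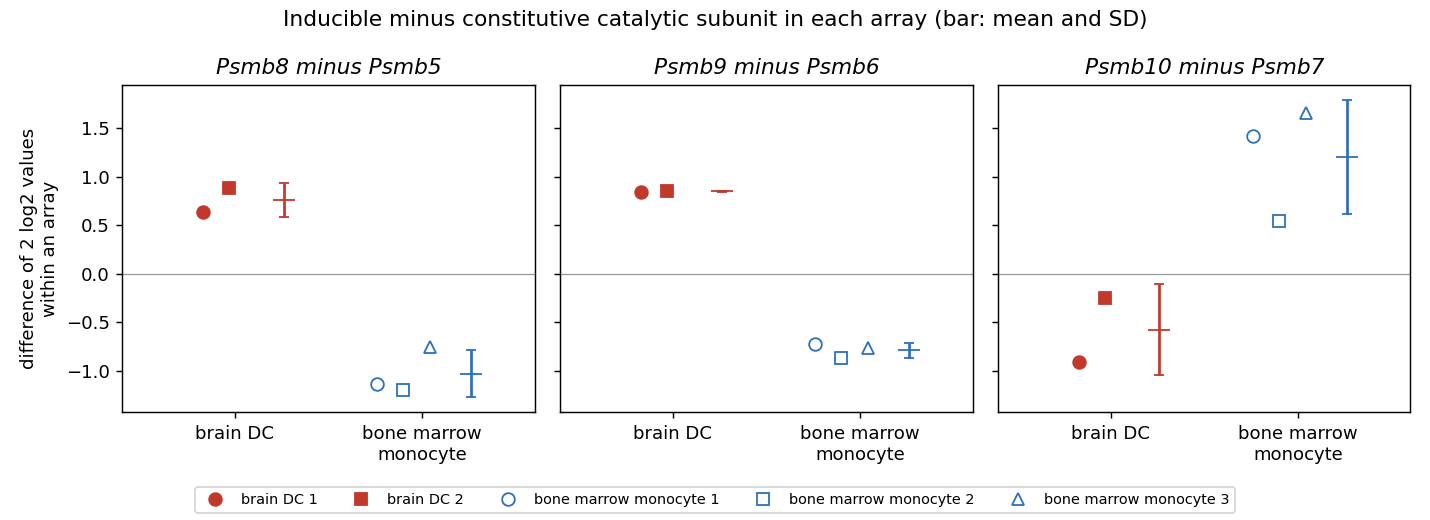
Log2 value of an inducible catalytic subunit minus that of its constitutive partner within each array, for brain DC (filled) and bone marrow monocyte (open) arrays, with bars for the mean and SD of each group. The brain DC arrays lie above the monocyte arrays for Psmb8 minus Psmb5 and Psmb9 minus Psmb6 and below them for Psmb10 minus Psmb7.

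Of the activators, Psme1 was called higher and Psme3 and Psme4 were not called. Psme1, the alpha chain of the interferon-inducible activator ring, read 0.93 and 1.04 in the brain DC arrays, against -1.16, -1.31 and -1.68 in the monocyte arrays. It was 5.17-fold higher (2.37 ± 0.17 SE, limma adjusted p = 8.09e-05), with groups far outside each other's spread. Psme2, the beta chain of the same ring, could not be given a value of its own. The probe set annotated to both Psme2b and Psme2 read 0.46 and 0.39 in the brain DC arrays, against -0.07, -0.38 and -0.13 in the monocyte arrays, a difference of 0.62 that was not part of the fit. Psme3, the nuclear activator, read 0.11 and 0.26 in the brain DC arrays, against -0.14, 0.10 and -0.22 in the monocyte arrays, without overlap by a narrow margin. It was not called (0.27, 95% interval -0.07 to 0.61, limma adjusted p = 0.188), and its 3 probe sets lay between -0.21 and 0.54, the highest of which was called when it stood for the gene (limma adjusted p = 0.0362). Psme4, a large activator of the nucleus and of germ cells, read 0.19 and 0.57 in the brain DC arrays, against 0.67, 0.50 and 0.80 in the monocyte arrays, and the groups overlapped. It was not called (-0.28, 95% interval -0.66 to 0.10, limma adjusted p = 0.232). Its 6 probe sets ran from -0.77 to 0.77, with 1 called higher and 2 called lower, so its direction depends on the probe set read.

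The outer alpha ring was divided: of its 7 genes 3 were called higher, 1 lower and 3 not called, with a median of 0.26. Psma4 read 1.29 and 0.98 in the brain DC arrays, against -0.06, -0.50 and 0.10 in the monocyte arrays, and was 2.44-fold higher (1.29 ± 0.20 SE, limma adjusted p = 0.00248). Psma3 (0.75) and Psma5 (0.59) were also called higher, but Psma3 lost its call without brain DC array 1 (0.49, limma adjusted p = 0.115), monocyte array 1 (0.67, limma adjusted p = 0.0682) or monocyte array 2 (0.73, limma adjusted p = 0.0587), and Psma5 without brain DC array 2 (0.55, limma adjusted p = 0.0617). Both calls also depended on the probe sets read. The 3 probe sets of Psma5 ran from 0.08 to 1.08. It was not called when only probe sets with a plain _at suffix were kept (0.08, limma adjusted p = 0.789). That setting dropped its _a_at probe sets, which were called higher at 1.08 and 0.60 when fitted alone. The probe sets of Psma3 stood at 0.09 and 1.42, and it was not called on the one with the highest mean value (0.09, limma adjusted p = 0.709). Psma7 went the other way and was the only member called lower. It read 0.81 and 0.37 in the brain DC arrays, against 1.28, 1.04 and 1.26 in the monocyte arrays, and was 1.52-fold lower (-0.61 ± 0.17 SE, limma adjusted p = 0.029). Its 2 probe sets stood close together, at -0.57 and -0.64. The Psma7 call was lost without brain DC array 2 (-0.38, limma adjusted p = 0.142), monocyte array 1 (-0.56, limma adjusted p = 0.0869) or monocyte array 3 (-0.57, limma adjusted p = 0.0804), and with quantile normalisation (-0.42, limma adjusted p = 0.127). Psma1 (0.26), Psma6 (0.07) and Psma2 (0.05) overlapped between the groups, although Psma1 was called on its probe set of highest mean value (0.77, limma adjusted p = 0.0226). That probe set read 1.18 and 0.82 in the brain DC arrays, against 0.30, 0.43 and -0.04 in the monocyte arrays. Because values are centred, the highest mean does not mark the best expressed probe set and can be reached through a single group. Psma4 and Psma7, subunits of the same ring, thus differed in opposite directions.

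The 4 structural beta subunits, Psmb1 to Psmb4, complete the inner rings and carry no active site. All 4 lay higher in brain DCs without overlap, and 1 of them was called. Psmb1 read 0.92 and 0.95 in the brain DC arrays, against -0.28, -0.55 and -0.20 in the monocyte arrays, and was 2.43-fold higher (1.28 ± 0.15 SE, limma adjusted p = 5.87e-04). All 3 of its probe sets were called higher, at 0.79 to 1.85. Psmb3 read 1.01 and 0.92 in the brain DC arrays, against 0.75, 0.34 and 0.27 in the monocyte arrays (0.51, 95% interval 0.11 to 0.91, limma adjusted p = 0.0538), and was called without monocyte array 1 (0.66, limma adjusted p = 0.0198) and with quantile normalisation (0.69, limma adjusted p = 0.0216). Its 2 probe sets disagreed. Psmb3 stood at 0.05 on the one with the highest mean value (limma adjusted p = 0.868). On the other, the one with a plain _at suffix, it was called at 0.97 (limma adjusted p = 0.00589). Psmb4 read 0.70 and 0.62 in the brain DC arrays, against 0.35, 0.30 and 0.28 in the monocyte arrays (0.35, limma adjusted p = 0.0601), and was called with quantile normalisation (0.47, limma adjusted p = 0.0202). For Psmb2, at 0.66, monocyte array 3 (-0.77) lay well below the other monocyte arrays (0.05 and 0.13), and the gene was not called (limma adjusted p = 0.106). In the whole constitutive core of 14 genes, 6 were called higher, 1 lower and 7 not called, with a median of 0.55.

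The regulatory particle showed no difference of 2-fold: of its 17 genes 5 were called higher and 12 not called, with a median of 0.31, and the largest difference was 0.86. The difference between core and regulatory particle was not tested. Among the 6 ATPases, which form the unfolding ring, 3 were called higher. Psmc3 read 0.86 and 0.87 in the brain DC arrays, against 0.00, 0.23 and -0.22 in the monocyte arrays (0.86 ± 0.16 SE, limma adjusted p = 0.00498), with no overlap. Psmc5 was at 0.80 (0.18 and 0.33 in the brain DC arrays, against -0.51, -0.16 and -0.98 in the monocyte arrays, limma adjusted p = 0.0318) and Psmc4 at 0.59 (limma adjusted p = 0.027). Both of the last calls depended on single arrays: Psmc5 lost its call without brain DC array 1 (0.88, limma adjusted p = 0.0825), brain DC array 2 (0.73, limma adjusted p = 0.126), monocyte array 1 (0.82, limma adjusted p = 0.0717) or monocyte array 3 (0.59, limma adjusted p = 0.052), and Psmc4 without brain DC array 2 (0.41, limma adjusted p = 0.134), monocyte array 1 (0.57, limma adjusted p = 0.0766) or monocyte array 2 (0.52, limma adjusted p = 0.0774). Psmc6 was at 0.38 and not called, although it was called without brain DC array 2 (0.72, limma adjusted p = 0.0185), and Psmc2 (-0.12) and Psmc1 (-0.13) lay slightly below 0.

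Of the 11 non-ATPase subunits, which form the lid and the ubiquitin-binding base, 2 were called higher and 9 not called. Over all genes 16.9% were called higher. Psmd13, a scaffold subunit of the lid, read 0.87 and 0.77 in the brain DC arrays, against 0.07, -0.03 and 0.03 in the monocyte arrays, and was 1.73-fold higher (0.79 ± 0.12 SE, limma adjusted p = 0.00219). Psmd8, another lid subunit, was at 0.58 (limma adjusted p = 0.0239) and lost its call without brain DC array 1 (0.65, limma adjusted p = 0.0546), brain DC array 2 (0.51, limma adjusted p = 0.0996) or monocyte array 2 (0.47, limma adjusted p = 0.0553). The ubiquitin receptor gene Psmd4 read 0.06 and 0.24 in the brain DC arrays, against -0.18, -0.20 and -0.17 in the monocyte arrays (0.33, 95% interval 0.04 to 0.63), without overlap but not called (limma adjusted p = 0.0757), except on the median of its probe sets (0.51, limma adjusted p = 0.0301). Psmd14, the lid enzyme that cuts ubiquitin chains from the substrate, read 0.00 and 0.03 in the brain DC arrays, against 0.30, 0.59 and 0.26 in the monocyte arrays. It was not called (-0.37, 95% interval -0.71 to -0.04, limma adjusted p = 0.0857), although both brain DC arrays lay below all monocyte arrays. The large scaffold gene Psmd1 differed between the brain DC arrays themselves, at -0.52 and 0.24, against 0.31, 0.36 and 0.22 in the monocyte arrays. It was not called (-0.44, limma adjusted p = 0.161), but was called lower without brain DC array 2 (-0.82, limma adjusted p = 0.00959). The other 6 non-ATPase members lay between -0.11 (Psmd11) and 0.33 (Psmd3).

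The 3 chaperones that help assemble the base of the regulatory particle and are not part of the finished complex were Psmd5, Psmd9 and Psmd10. Psmd9 read 0.76 and 0.37 in the brain DC arrays, against -0.20, -0.26 and -0.16 in the monocyte arrays (0.77 ± 0.15 SE, limma adjusted p = 0.00653). Psmd10, known as gankyrin, read 0.78 and 0.95 in the brain DC arrays, against 0.22, 0.30 and -0.06 in the monocyte arrays (0.71 ± 0.15 SE, limma adjusted p = 0.00969), and was not called without brain DC array 2 (0.63, limma adjusted p = 0.0508). Both genes lay higher in brain DCs without overlap, whereas Psmd5 overlapped between the groups (-0.14, limma adjusted p = 0.488).

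Where a member was read by several probe sets, these did not always agree. The 40 members had 86 probe sets, of which 60 lay above 0, 30 were called higher and 4 were called lower when each probe set was fitted on its own, beside 13.5% called higher and 16.8% called lower of all probe sets with 1 symbol. Of the 22 members with several probe sets, 7 had probe sets on both sides of 0: Psma1 (-0.26 to 0.77), Psma6 (-0.34 to 0.62), Psmc2 (-0.62 to 0.32), Psmd2 (-0.35 to 0.23), Psmd11 (-0.79 to 0.34), Psme3 and Psme4. None of these 7 genes was called on its mean. Of the 6 members at least 2-fold higher, Psmb8 and Psmb1 were read by several probe sets, all called higher, while Psmb9, Psmb7, Psme1 and Psma4 rested on 1 probe set each.

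**Figure D4:**
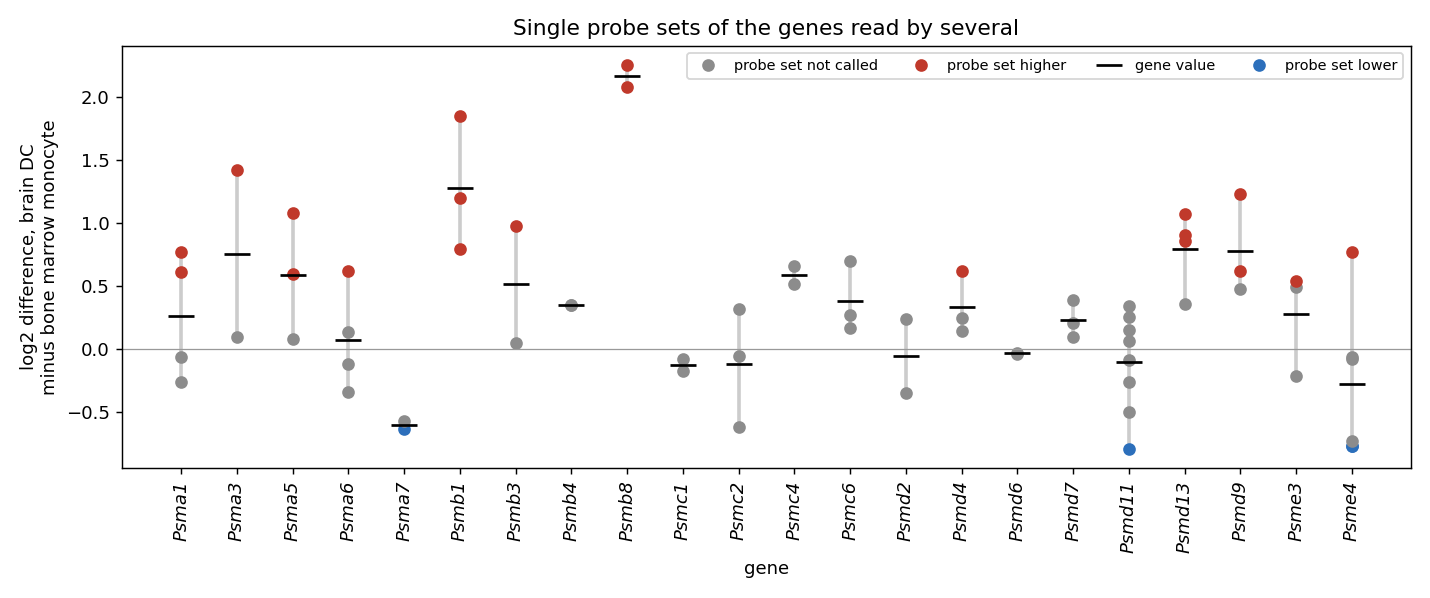
Log2 difference (brain DC minus bone marrow monocyte) of each probe set of the 22 members read by several, coloured by the call of the probe set, with a black dash at the value of the gene. Psmb8 and Psmb1 have all probe sets in red, while Psme4 has red, blue and grey probe sets on both sides of 0.

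Genes that work with the proteasome were taken from lists of 64 genes, of which 55 were measured. Of these 19 were called higher, 9 lower and 27 not called, with a median of 0.19. The shares over all genes were 16.9% higher and 16.9% lower, and they apply to each of these lists. Of the 5 chaperones that assemble the core, 3 were called higher and 2 not called. Pomp, the maturation factor that the core degrades on completion, read 1.29 and 0.94 in the brain DC arrays, against -0.14, -0.21 and -0.48 in the monocyte arrays, and was 2.63-fold higher (1.39, limma adjusted p = 0.000703). Psmg4 (0.82) and Psmg1 (0.77), chaperones of the alpha ring, were the others called, and Psmg1 lost its call without brain DC array 2 (0.52). The probe sets of Psmg4 stood at 0.28 and 1.37, and only the higher was called when fitted alone. Among 9 measured cofactors, inhibitors and tissue-specific subunits, 1 was called higher and 3 lower. Ecpas, which binds the core to the regulatory particle, was 3.02-fold lower (-1.59), and the ligase gene Ube3c was at -0.78. Psmf1, an inhibitor of the core in vitro, was at -0.93, with 3 of its 4 probe sets called lower and the highest at 0.38. Txnl1, a thioredoxin of the regulatory particle, was the one called higher, at 0.45. Its 6 probe sets ran from 0.004 to 1.54, and only the highest was called when fitted alone. Ube3c lost its call without brain DC array 1 (-0.53, limma adjusted p = 0.116), monocyte array 1 (-0.77, limma adjusted p = 0.0591) or monocyte array 2 (-0.67, limma adjusted p = 0.059), and Txnl1 without any 1 array other than brain DC array 2 (0.34 to 0.50). Of 7 measured ubiquitin and shuttle genes only the unfoldase gene Vcp was called (0.51), and not without brain DC array 1 (0.36), monocyte array 1 (0.48, limma adjusted p = 0.12) or monocyte array 3 (0.44, limma adjusted p = 0.126). The probe sets of Vcp stood at -0.01 and 1.04, of which the higher alone was called.

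Among 8 measured regulators of proteasome genes, 3 were called higher and 2 lower. Nfe2l1, the factor that raises proteasome genes when activity falls short, was at 0.26 and not called. The related factor gene Nfe2l2 was 2.17-fold higher (1.12), with probe sets at 0.20 and 2.04. Their small Maf partners differed in direction: Maff was 11.5-fold higher (3.53) and Mafk 1.99-fold higher (0.99), whereas Mafg was 2.64-fold lower (-1.40). Nfyc, a subunit of the CCAAT-binding factor, was 2.55-fold lower (-1.35). On the interferon gamma route, 2 of 8 measured genes were called higher (Jak2 0.97, Irf8 0.86) and 1 lower (Jak1 -1.51), and the factor genes Irf1 (-0.26), Irf2 (-0.15) and Nlrc5 (0.23) were not called. The probe sets of Irf8 stood at 0.33 and 1.39, and only the higher was called when fitted alone. Irf8 was not called without brain DC array 2 (0.79, limma adjusted p = 0.0637), and Irf2 was called lower without that array (-0.85, limma adjusted p = 0.0454).

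Of the 10 genes that move peptides into the endoplasmic reticulum and load them on class I molecules, 8 were called higher and 2 not called, with a median of 0.81. Tap2 was 2.87-fold higher (1.52), B2m, the class I light chain, 2.77-fold (1.47), H2-K1 2.26-fold (1.18) and H2-D1 1.90-fold (0.92). The B2m probe sets stood at 0.53, not called when fitted alone, and 2.41. Those of H2-K1 ran from 0.47 to 1.89, with 3 of 4 called, and those of H2-D1 from 0.17 to 1.96, with 6 of 9 called. Tap1, which shares most of its promoter window with Psmb9, was 1.32-fold higher (0.40), against 6.04-fold for Psmb9. That value averages 4 probe sets from -0.09 to 1.42, of which only the highest was called when fitted alone (limma adjusted p = 0.000929). Whichever 1 of the 5 arrays was left out, Tap1 was no longer called (0.34 to 0.45). Among 8 cytosolic peptidases that trim proteasome products, 3 were called lower (Ide -0.98, Npepps -0.82, Tpp2 -0.68) and 1 higher (Lap3, 0.94, an interferon-inducible aminopeptidase). Tpp2 was not called without brain DC array 2 (-0.50, limma adjusted p = 0.0693).

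**Figure D5:**
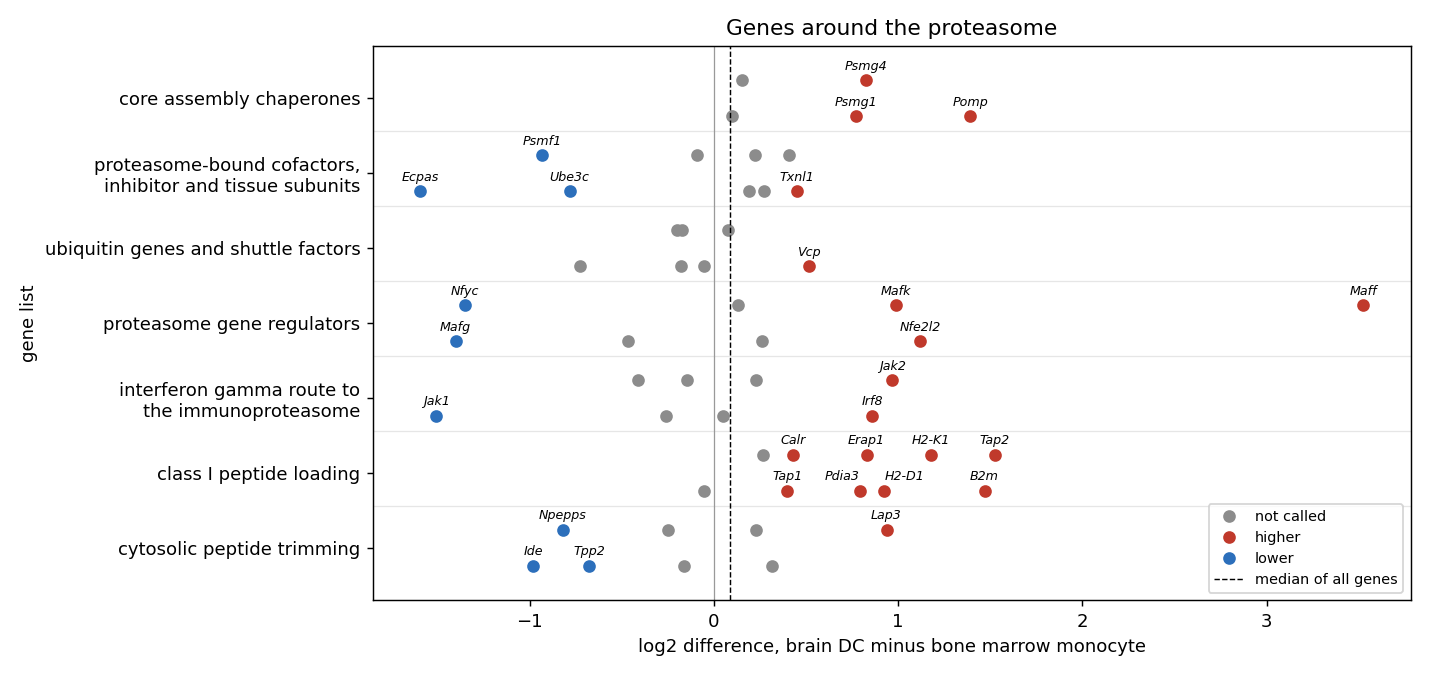
Log2 difference (brain DC minus bone marrow monocyte) of each measured gene in 7 lists of genes that work with the proteasome, red where called higher, blue where called lower and grey where not called, with called genes named. In the class I loading list 8 of 10 genes are red, while the cytosolic trimming list has 3 blue genes and 1 red.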

How the data were processed

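RNA was extracted by Qiagen Mini prep and labelled by the Affymetrix protocol, per the labels, with 1 array per sample. The deposited log2 values were made by the authors with RMA, per the submitters' processing notes; the log base is inferred from their range. They lie around 0 within each probe set, so levels, and any filter on low values, are lost. How that baseline was made, the version of RMA and which arrays entered it are not given in the sources used. RMA equalises array distributions, so a shift of most genes at once would be removed.

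Of 45101 probe sets, 34945 had 1 symbol in the platform annotation, 932 several and 9160 none, with 64 controls set aside. Probe sets of a gene were averaged, giving 18193 genes. Groups were tested with limma 3.58.1 in R 4.3.3 (lmFit and eBayes, no covariate, 3 residual degrees of freedom), with Benjamini-Hochberg adjustment over all genes. Inducible minus constitutive differences were tested by exact permutation over the arrays. The alternatives changed how probe sets were combined, the scaling, the variance model, array weights, a replicate block, the threshold and the arrays used. The fit was also run on arrays simulated from its own variance model, with 200 of 18193 genes changed. Of changes of 1 and 2 on the log2 scale, 69.2% and 97.8% were called, and 5.44% of calls were false. The simulated noise was independent and held no RNA quality difference, so it does not check the calls made here.

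The members and lists were chosen with earlier results of these data known. Named genes were all catalytic subunits and activators, in each other role up to 3 called increases and 3 called decreases, members with probe sets on both sides of 0, and up to 4 called genes of each related list and 3 of each marker list. Members outside that rule, such as Psmb2 to Psmb4, Psmd4, Psmd1 and Psmd14, were named after their values were seen. So were the gate genes Csf1r and Itgam and the named markers that were not called (Camp, Ngp, Ltf, S100a8, Cd79a and Tcf4). Of 64 related genes, 55 were measured. Promoter windows are RefSeq's on GRCm38.p6.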

Additional observations from a re-analysis of the deposited data

Results flagged for a closer look

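A pair of signals lay outside the genes fitted. The probe set annotated to both Psme2b and Psme2 was 0.62 higher in brain DCs than in monocytes (log2), with both brain DC arrays above all 3 monocyte arrays. The poly-A spike-in probe sets, which no mouse cell makes, were higher in brain DCs by a median of 2.59, and all 24 had groups that did not overlap.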

How the results depend on the processing

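With 2 and 3 arrays and no array dates used here, small differences were not resolved, and centred values hide signal over background. Leaving out 1 array at a time gave 2236 to 2447 genes called higher and 2371 to 2806 lower, with 12 to 15 members called higher and 0 to 1 lower. Of the 18 called members, 10 kept their call without each array, and Psma4, Psmb1, Psmb7, Psmb8, Psmb9 and Psme1 kept it under every alternative run for them, a limit of 2-fold included. The 3 inducible minus constitutive differences kept their direction in each alternative. Psmb8 minus Psmb5 had no value with plain _at probe sets alone. At an adjusted p under 0.01, 1639 genes were called higher and 1976 lower, with 11 members higher and 0 lower. At 2-fold or more, 1097 genes were called higher and 1367 lower, with 6 members higher and 0 lower. Members called lower numbered 0 with quantile normalisation or a variance trend (Psma7 lost, limma adjusted p = 0.127 and 0.0524), and 2 when each probe set was fitted alone. Members called higher numbered 20 with quantile normalisation and 21 with each probe set alone, where 18.1% of all genes were called higher and 20% lower. With arrays centred on their median, 2507 genes were called higher and 3408 lower. With each gene taken from its probe set of highest mean value, Psme4 turned to 0.77 (limma adjusted p = 0.0128), Ufd1 to 0.53 (limma adjusted p = 0.0303) and Tap1 to -0.091. A mean of centred values carries no level, so that choice does not mark the best expressed probe set. The causes were not tested.

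The groups share replicate numbers 1 and 2, and deviations of same-numbered arrays correlated at 0.04 and 0.09. The deviations of the 2 brain DC arrays mirror each other exactly (correlation -1), so these are not separate values. They cannot show whether the numbers pair the arrays. With the number as a replicate block, 2513 genes were called higher and 3006 lower, with 17 members higher and 1 lower. The paired shifts were then 1.92 for Psmb8 minus Psmb5, 1.64 for Psmb9 minus Psmb6 and -1.56 for Psmb10 minus Psmb7. These shifts equal those without monocyte array 3, which the block takes up, so they are not a separate check.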
